A study of Mus musculus with 27 samples.

Results

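A set of 8 genes of the foregut lining and of epithelia in general, Nkx2-1, Foxa1, Foxa2, Shh, Epcam, Cdh1, Krt8 and Krt18, were followed array by array through embryonic mouse hearts at stage E11.5. They were taken by their symbol in the platform annotation, and all 8 of the 8 listed genes were measured, by 1 probe set each, among 19935 genes in all. The 27 arrays fall into 6 genotype groups, heterozygous for a deletion of Brg1 (Brg1+/-, n = 6), of Tbx5 (Tbx5+/-, n = 5) or of Nkx2-5 (Nkx2-5+/-, n = 4), compound heterozygous for Tbx5 and Brg1 (Tbx5+/-;Brg1+/-, n = 3) or for Nkx2-5 and Brg1 (Nkx2-5+/-;Brg1+/-, n = 3), or wild type (n = 6). All groups share the strain label C57Bl/6/BLKSW mix, and total RNA of dissected hearts was labelled with biotin, with 1 array per sample. The series compares each single loss, and the addition of Brg1 loss to a transcription factor loss. The labels do not say that arrays come from separate embryos, how many hearts went into a sample or which part of a gene was deleted, so p-values measure only the spread between these arrays. Values are RMA log2 signals, a difference of 1 on this scale is a doubling of signal, and differences carry an adjusted p from limma, with the Benjamini-Hochberg method over all 19935 genes and a call at an adjusted p under 0.05.

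Nkx2-1, Foxa1 and Foxa2 are transcription factors of the foregut endoderm, the tube behind the heart from which the thyroid, trachea and lung bud. That endoderm secretes the ligand Shh, which binds the receptor Ptch1 in neighbouring mesenchyme, frees Smo and so turns on Gli1, Ptch1 and Hhip, and mesoderm next to the heart that receives this signal takes part in building the atrial septum. Epcam and Cdh1 hold epithelial cells together, while Krt8 and Krt18 pair into the keratin filaments of simple epithelia and are also made by the mesothelial covering of the heart and in early heart muscle.

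The signals averaged 5.80 for Nkx2-1, 5.73 for Foxa1, 6.30 for Foxa2, 5.74 for Shh, 5.28 for Epcam and 5.43 for Cdh1 over the 27 arrays, and 8.67 for Krt8 and 8.47 for Krt18. The table holds no detection calls. Olfactory and vomeronasal receptor genes, 1193 in number and not known for a role in the heart, had mean signals of 2.61 to 5.29 between their 5th and 95th percentile. Since probe sets differ in their own background, this does not show whether a member is expressed. The probe sets are 10400474 (Nkx2-1, chromosome 12), 10400504 (Foxa1, 12), 10488374 (Foxa2, 2), 10528872 (Shh, 5), 10447383 (Epcam, 17), 10575052 (Cdh1, 8), 10432918 (Krt8, 15) and 10427075 (Krt18, 15), with chromosomes from RefSeq.

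On 2 arrays the signal of Smarca4, the gene of Brg1, did not match the genotype given. At 9.57, Smarca4 on the array labelled Nkx2-5+/- replicate 3 fell within the range of arrays labelled with Brg1 loss, and its Nkx2-5 signal of 9.40 was above the other arrays labelled Nkx2-5+/-. At 10.01, Smarca4 on the array labelled Tbx5+/-;Brg1+/- replicate 3 fell within the range of arrays labelled without Brg1 loss. Differences and counts in Nkx2-5+/- hearts that turn on them are given with and without this pair. Tbx5 itself was not lower in hearts labelled with its loss, at 8.80 ± 0.17 in Tbx5+/- (n = 5) and 8.61 ± 0.10 in Tbx5+/-;Brg1+/- (n = 3), against 8.57 ± 0.20 in wild type (SD, n = 6). The difference in Tbx5+/- was 0.23 (SE 0.12, adjusted p = 1). Whether the probe set lies in the deleted part is not given in the labels, so its signal does not check the 8 labels of Tbx5 loss, and genotypes are named throughout as labelled. The hearts carried their defining genes, with a mean signal of 14 cardiomyocyte genes between 11.24 and 12.31 on every array. Liver genes were high on wild-type replicate 3, where the mean signal of 11 genes was 7.70. Fewer cells of a type and less RNA per cell cannot be told apart in RNA of whole hearts.

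**Figure D1:**
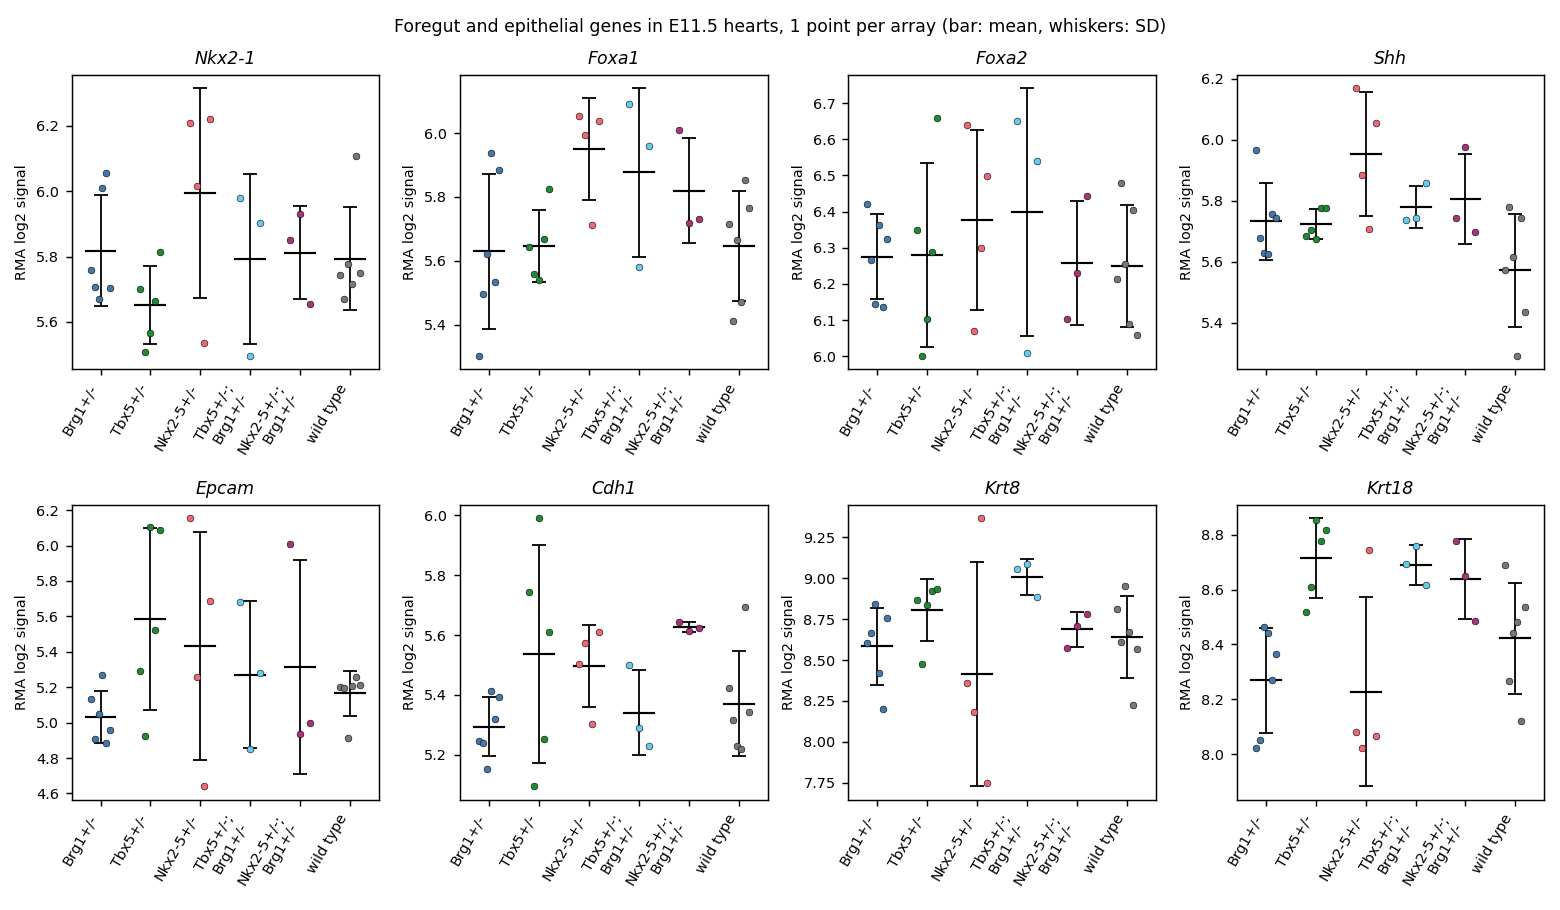
RMA log2 signal of each of the 8 genes on each of the 27 arrays, by genotype, with the group mean (bar) and SD (whiskers), each panel on its own signal scale. The Shh signals of Nkx2-5+/- arrays lie between 5.71 and 6.17 against 5.29 to 5.78 in wild type, and 1 Nkx2-5+/- array stands above the others of its group in Krt8 (9.37) and Krt18 (8.74).

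Of the 72 tests, 8 genes in 9 comparisons, 1 passed, and it was Shh in Nkx2-5+/- against wild-type hearts. In that comparison 1 of 8 members was called, against 7.89% of all genes (2.72% higher and 5.16% lower), and 2 of 8 had an unadjusted p under 0.05, against 22.3% of all genes. Against wild type, limma called 0 of 8 members in Brg1+/- hearts, where 0.01% of all genes were called, and 0 of 8 in Tbx5+/- hearts, where 0% were. It called 0 of 8 in Tbx5+/-;Brg1+/- hearts, where 0% of all genes were called, and 0 of 8 in Nkx2-5+/-;Brg1+/- hearts, where 0.0351% were. At an unadjusted p under 0.05 these 4 comparisons held 0, 1, 0 and 1 members, against 9.71%, 3.95%, 4.38% and 7.39% of all genes. The member in Tbx5+/- hearts was Krt18, and the one in Nkx2-5+/-;Brg1+/- hearts was Shh.

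Adding Brg1 loss to the loss of a transcription factor gave no call among the members either. Limma called 0 of 8 in Tbx5+/-;Brg1+/- against Tbx5+/- hearts and 0 of 8 in Nkx2-5+/-;Brg1+/- against Nkx2-5+/- hearts, where 0% and 0.0401% of all genes were called. The interaction subtracts the Brg1+/- minus wild-type difference from the difference that Brg1 loss makes in heterozygotes for the factor. It called 0 of 8 members for Tbx5 (0% of all genes) and 0 of 8 for Nkx2-5 (4.95% of all genes, 2.23% above 0 and 2.72% below). At an unadjusted p under 0.05 these 4 tests held 0, 1, 0 and 2 members, against 2.48%, 15.4%, 3.04% and 20.2% of all genes. The median difference of the 8 members from wild type was -0.04 in Brg1+/-, 0.16 in Tbx5+/-, 0.16 in Nkx2-5+/-, 0.18 in Tbx5+/-;Brg1+/- and 0.16 in Nkx2-5+/-;Brg1+/- hearts, where the median of all genes lay between -0.02 and 0.01. Without the pair of arrays the medians were 0.27 in Nkx2-5+/- and 0.13 in Tbx5+/-;Brg1+/- hearts. These 5 comparisons share their wild-type arrays.

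**Figure D2:**
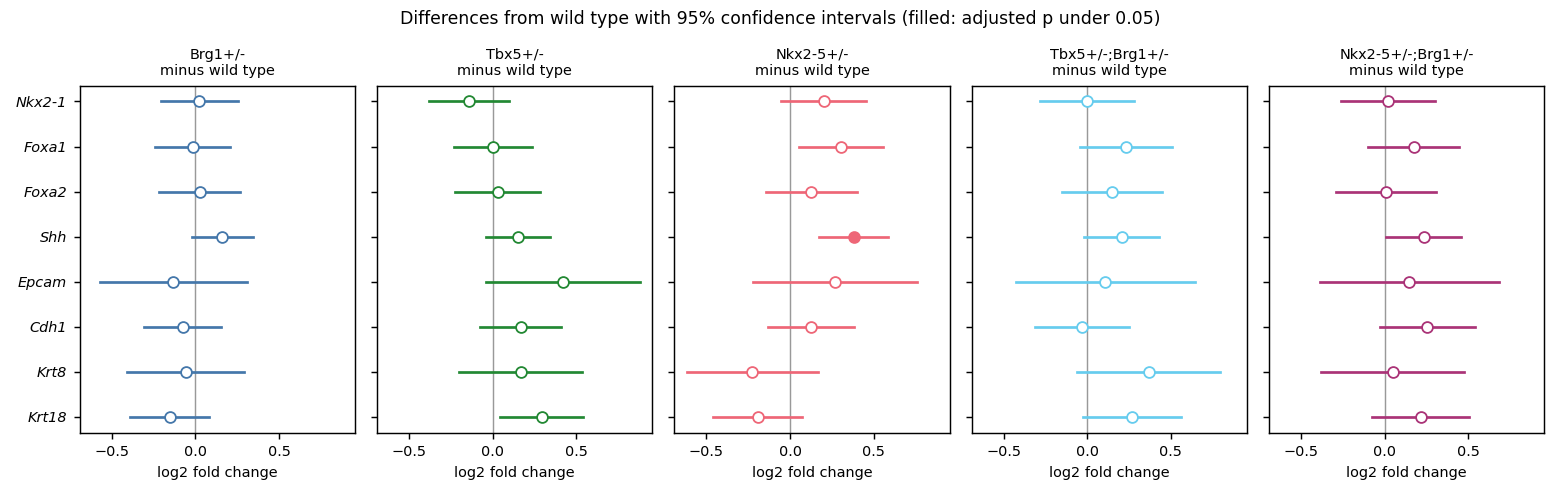
Log2 fold change of each of the 8 genes in each genotype minus wild type, with its 95% confidence interval, and a filled point where the adjusted p was under 0.05. The Shh point of Nkx2-5+/- hearts, at 0.38, is the filled one, and the Epcam intervals reach from -0.57 to 0.88 over the 5 comparisons.

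Among the transcription factors, Nkx2-1, which specifies thyroid and lung endoderm, lay between 5.50 and 6.22 on all 27 arrays. Its signals in the 4 Nkx2-5+/- arrays were 6.21, 6.02, 5.53 and 6.22, against 5.67 to 6.11 in wild type with a median of 5.75. Replicates 1 and 4 were above every wild-type array and replicate 3 was below every one, so the groups overlapped. The difference was 0.20 (SE 0.12, adjusted p = 0.367). Without the pair of arrays it was 0.35 (adjusted p = 0.0297), in a comparison that then called 21.8% of all genes. Foxa1, a pioneer factor that opens chromatin in endoderm, had Nkx2-5+/- signals of 6.05, 6.00, 5.71 and 6.04, against 5.41 to 5.85 in wild type with a median of 5.69. All but replicate 3 lay above every wild-type array. The difference was 0.30 (SE 0.12, adjusted p = 0.126), and 0.38 (adjusted p = 0.036) without the pair.

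Foxa2, the relative of Foxa1 that the endoderm and the notochord both need, ran from 6.00 to 6.66 over all arrays, with both ends in Tbx5+/- hearts. Its largest difference from wild type, in Tbx5+/-;Brg1+/- hearts, was 0.15 (SE 0.15, adjusted p = 0.979). All 6 groups overlapped their neighbours in rank, and each gap between neighbours was smaller than the larger of their SDs. In Nkx2-1, too, no gap between neighbouring groups exceeded that SD. In Foxa1 the Nkx2-5+/-;Brg1+/- mean of 5.82 stood above the Tbx5+/- mean of 5.65 by more than it, with overlapping arrays.

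Of 19 measured genes of the foregut endoderm list, 0 were higher and 1 was lower in Nkx2-5+/- than in wild-type hearts, with a median difference of -0.01 beside -0.01 for all genes. The gene was Id2, an inhibitor of helix-loop-helix factors, which fell by 0.62 (SE 0.16, adjusted p = 0.0205). Id2 signals were 10.003, 9.485, 10.707 and 9.605 in Nkx2-5+/- hearts, against 10.37 to 10.79 in wild type. Id2 is not confined to endoderm, and all but replicate 3 of the Nkx2-5+/- arrays lay below wild type. Of 10 measured genes of the foregut mesenchyme list, Bmp4, a ligand also made in the outflow tract of the heart, fell by 0.61 (SE 0.13, adjusted p = 0.0102), and 0 were higher. Bmp4 also passed the Nkx2-5 by Brg1 interaction, at 0.97 (SE 0.20, adjusted p = 0.0166). In the other comparisons of these lists limma called 0 genes. Leaving out the pair, 2 of the 19 endoderm genes were higher and 1 was lower in Nkx2-5+/- hearts, and 0 of the 10 mesenchyme genes were higher and 2 lower. In that fit 6.56% of all genes were higher and 15.2% lower.

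Shh was the ligand among the members and the gene that passed. Its signals were 6.17, 5.88, 5.71 and 6.05 in Nkx2-5+/- hearts, against 5.57, 5.78, 5.61, 5.29, 5.74 and 5.44 in wild type. Replicate 3 of Nkx2-5+/-, at 5.71, lay below the wild-type arrays at 5.78 and 5.74, so the groups overlapped, while the other 3 were above all wild-type arrays. Shh averaged 5.95 ± 0.20 in Nkx2-5+/- and 5.57 ± 0.19 in wild-type hearts (SD, n = 4 and 6). It rose by 0.38 (SE 0.10, 95% interval 0.18 to 0.59, adjusted p = 0.022), a fold of 1.30. The call ended with the arrays of these 2 groups fitted alone (adjusted p = 0.159), after adjustment for the mean of red blood cell genes (0.397), and without Nkx2-5+/- replicate 1 (0.0881), 2 (0.0905) or 4 (0.0919) or wild-type replicate 4 (0.0647). Calls over all genes also fell in these settings, from 1572 to 4 with the 2 groups alone and 2 after that adjustment. They numbered 895, 66 and 224 without Nkx2-5+/- replicate 1, 2 or 4, and 593 without wild-type replicate 4. Without the pair of arrays the Shh difference was 0.46 (adjusted p = 0.00172).

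Red blood cell genes moved beside the Shh result. The mean signal of 11 erythroid genes was 10.57, 10.81, 8.75 and 10.55 in Nkx2-5+/- hearts, against 8.11 to 9.81 in wild type. Limma called 5 of these 11 higher and 0 lower, against 2.72% and 5.16% of all genes, with a median difference of 1.26. With the erythroid mean as a covariate the Shh difference was 0.33 (SE 0.12). With the pair left out limma called all 11 of 11 higher, with a median of 1.88, where 6.56% of all genes were higher. Within groups, Shh had r = 0.17 with the erythroid mean in a permutation test, and -0.115 without the pair. The former did not pass (adjusted p = 0.675 over 112 relations between a member and a list). Beyond these, the part of blood content in the Shh result was not tested.

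In the other genotypes Shh stood above the wild-type mean without passing. The differences were 0.16 in Brg1+/- (adjusted p = 0.569), 0.15 in Tbx5+/- (adjusted p = 1), 0.21 in Tbx5+/-;Brg1+/- (adjusted p = 0.979) and 0.23 in Nkx2-5+/-;Brg1+/- hearts (adjusted p = 0.664). Wild type thus had the lowest Shh mean of the 6 groups, but no gap between neighbouring groups exceeded the larger SD. In Nkx2-5+/-;Brg1+/- against Nkx2-5+/- hearts the difference was -0.15 (SE 0.12, adjusted p = 0.613), with signals of 5.74, 5.98 and 5.70 in the compound group. The Nkx2-5 by Brg1 interaction was -0.31 (SE 0.15, adjusted p = 0.241).

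Of the 15 measured hedgehog pathway genes other than Shh, 1 was higher and 0 were lower in Nkx2-5+/- than in wild-type hearts, with a median difference of -0.03 beside -0.01 for all genes. The gene was Ptch1, the receptor and a target of the pathway, which rose by 0.44 (SE 0.13, adjusted p = 0.0374). Its signals were 8.10, 7.90, 8.05 and 7.86 in Nkx2-5+/- hearts, against 7.40, 7.87, 7.90, 7.26, 7.31 and 7.51 in wild type, and a pair of wild-type arrays reached into the Nkx2-5+/- range. The targets Gli1 and Hhip did not pass. Gli1 differed by 0.16 (SE 0.13, adjusted p = 0.518) and Hhip by -0.01 (SE 0.27, adjusted p = 0.993). Without the pair of arrays Gli1 differed by 0.22 (adjusted p = 0.297) and Hhip by 0.16 (adjusted p = 0.765). Smo, the signal transducer, stood at -0.24 (SE 0.12, adjusted p = 0.239) in Nkx2-5+/- hearts and passed the Nkx2-5 by Brg1 interaction, at 0.58 (SE 0.17, adjusted p = 0.0484). With both arrays left out Ptch1 rose by 0.41 (adjusted p = 0.0425), and the Smo interaction was 0.62 (adjusted p = 0.0173). Of the 15, 1 was then higher and 1 lower in Nkx2-5+/- than in wild-type hearts, against 6.56% and 15.2% of all genes. In the other comparisons limma called 0 of the 15 genes. Of 5 measured notochord and floor plate genes, the other midline source of Shh, limma called 0 in any comparison.

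**Figure D3:**
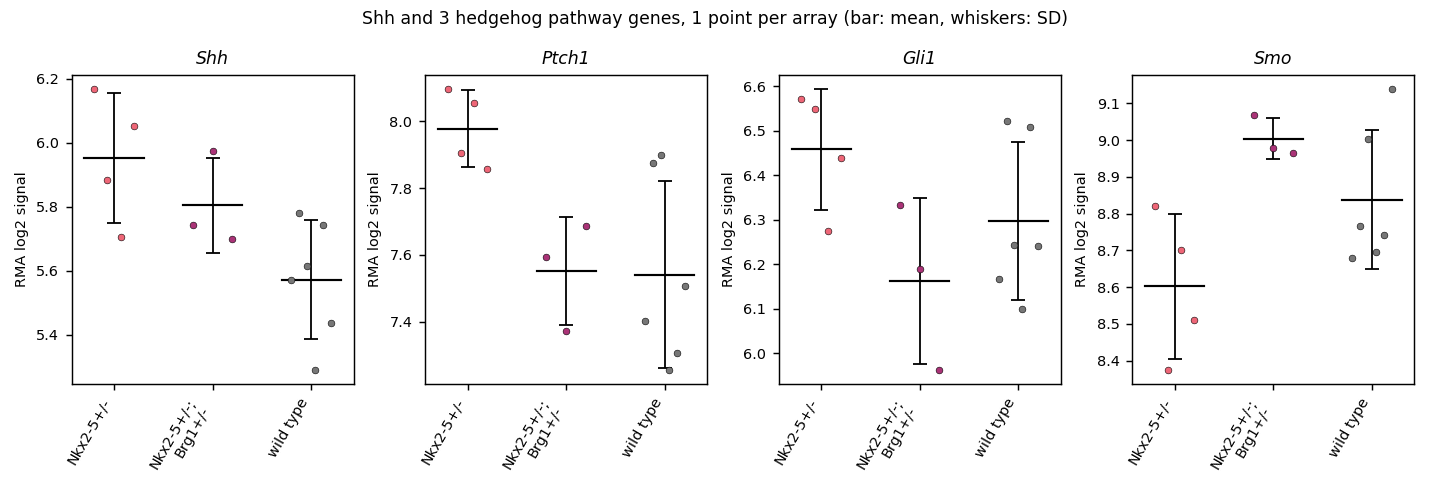
RMA log2 signal of Shh and of the pathway genes Ptch1, Gli1 and Smo on each array of the Nkx2-5+/-, Nkx2-5+/-;Brg1+/- and wild-type groups, with mean (bar) and SD (whiskers). The 4 Nkx2-5+/- arrays have Ptch1 signals of 7.86 to 8.10, above the Nkx2-5+/-;Brg1+/- arrays at 7.37 to 7.69, a difference that did not pass (adjusted p = 0.151).

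Epcam, the epithelial adhesion molecule, had the largest SD within groups of the 8 members when pooled over all 6, at 0.41, the 97.8th percentile of the 1000 genes of nearest mean signal. Krt8 stood at the 93.4th percentile, Cdh1 at the 51.5th and Shh at the 9.8th. The spread of Epcam differed between groups, with an SD of 0.15 in Brg1+/- and 0.64 in Nkx2-5+/- hearts, where Krt8 had 0.69, and of 0.13 in wild type, the smallest of the 8 members there. Epcam signals were 5.29, 4.92, 6.11, 5.52 and 6.09 in Tbx5+/- hearts, and 6.15, 5.26, 4.64 and 5.69 in Nkx2-5+/- hearts. In hearts with 2 losses they were 5.68, 4.85 and 5.28 (Tbx5+/-;Brg1+/-) or 6.01, 4.93 and 5.00 (Nkx2-5+/-;Brg1+/-). Brg1+/- arrays lay between 4.89 and 5.27 with a median of 5.01, and wild-type arrays between 4.91 and 5.26 with a median of 5.20. The 4 arrays above 6 came from 3 genotypes, and no Brg1+/- or wild-type array was among them. Each of these genotypes also had at least 1 array inside the wild-type range. The differences from wild type ran from -0.13 in Brg1+/- to 0.42 in Tbx5+/- hearts (SE 0.22, 95% interval -0.04 to 0.88, adjusted p = 1), and none passed.

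The genes whose pattern over the 27 arrays was most like that of Epcam, with group means subtracted, were Cldn6 (Pearson r = 0.81), Cxcl13 (0.80) and Sox2 (0.78). They were ranked among all genes by this measure, so the values are a description. Cldn6 is a claudin of tight junctions in embryonic epithelia, Sox2 a transcription factor of the dorsal foregut and of neural tissue, and Cxcl13 a chemokine. Tbx5+/- replicate 5, with Epcam at 6.09, had 6.65 for Cldn6, 4.83 for Cxcl13, 5.37 for Sox2 and 7.51 for Foxf1, a factor of the foregut mesenchyme that was chosen after its values were seen, as was Esrp1 below. Nkx2-5+/- replicate 1, with Epcam at 6.15, had 6.56 for Cldn6, 5.75 for Cxcl13, 5.00 for Sox2 and 7.13 for Foxf1. The array of Nkx2-5+/-;Brg1+/- replicate 1, with Epcam at 6.01, had 6.27 for Cldn6, 5.44 for Cxcl13 and 5.19 for Sox2. Wild-type arrays had 5.27 to 6.15 for Cldn6, 4.42 to 5.15 for Cxcl13, 4.74 to 4.99 for Sox2 and 5.87 to 6.64 for Foxf1. Over the 10 measured foregut mesenchyme genes, Foxf1 among them, wild-type means were 6.34 to 6.58. The mean was 6.86 on Tbx5+/- replicate 5, 6.59 on Nkx2-5+/- replicate 1 and 6.52 on Nkx2-5+/-;Brg1+/- replicate 1. These 3 arrays were above every wild-type array in Cldn6 and Sox2, and all but Tbx5+/- replicate 5 were in Cxcl13. They were picked by Epcam and the genes by likeness to it, so this is a description and no separate support. For the 19 foregut endoderm genes, Cldn6 and Sox2 among them, their means were 6.07, 5.94 and 6.02. Those lay within the wild-type range of 5.87 to 6.11.

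Tbx5+/- replicate 3, the last array above 6, with Epcam at 6.11, had 5.99 for Cdh1, 6.44 for the claudin Cldn4 and 5.55 for Esrp1, an epithelial splicing factor, each the highest of the 27 arrays, but 6.06 for Cldn6, 4.71 for Cxcl13, 4.55 for Sox2 and 6.35 for Foxf1, which were not above wild type. The mean of 29 epithelial genes was 6.01 on this array and 6.02 on Tbx5+/- replicate 5. It was 5.94 on Nkx2-5+/- replicate 1 and 6.01 on Nkx2-5+/-;Brg1+/- replicate 1, all within the wild-type range of 5.83 to 6.02. Epcam followed the mean of these 29 genes within groups, with Pearson r = 0.68 (permutation p = 2.4e-04, adjusted p = 0.00784 over 112 relations between a member and a list) and Spearman rho = 0.65 (adjusted p = 0.00821, n = 27). Without Nkx2-5+/- replicate 1 and Tbx5+/- replicate 3, the arrays farthest from the median, r was 0.66, and without the pair of arrays against their labels it was 0.56. The relation of Epcam to the mean of the foregut endoderm list did not pass.

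**Figure D4:**
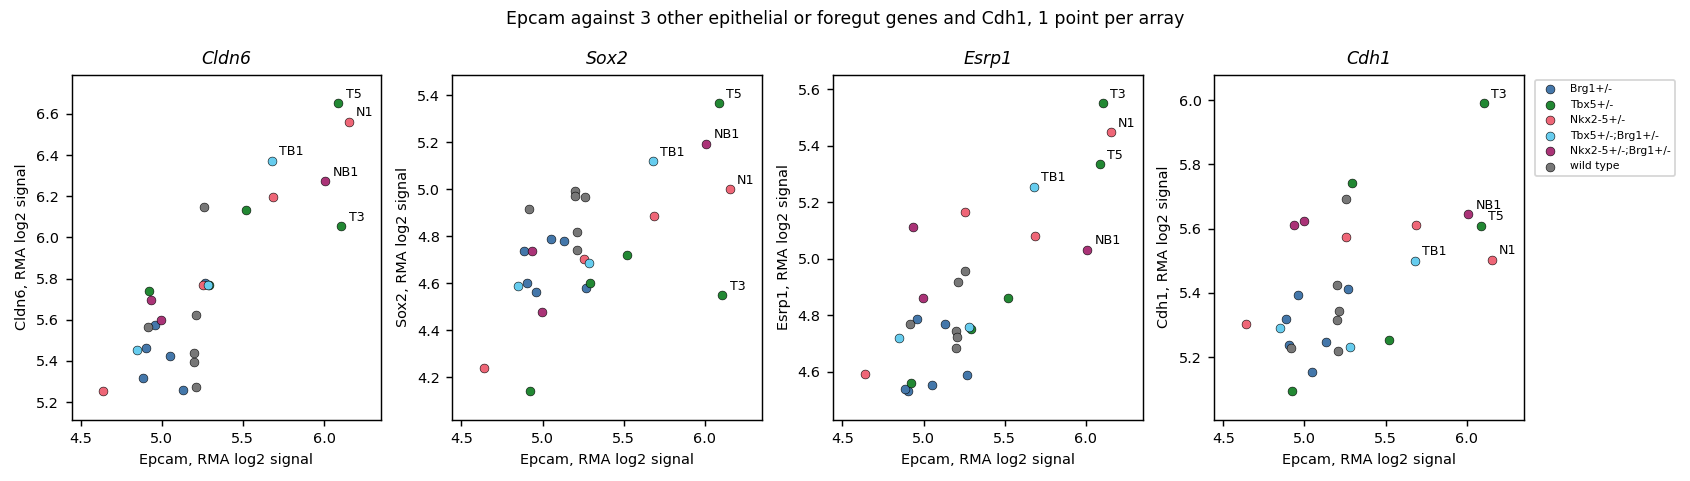
RMA log2 signals of Cldn6, Sox2, Esrp1 and Cdh1 against Epcam, 1 point per array, coloured by genotype, with Tbx5+/- replicates 3 and 5 (T3, T5), Nkx2-5+/- replicate 1 (N1), Tbx5+/-;Brg1+/- replicate 1 (TB1) and Nkx2-5+/-;Brg1+/- replicate 1 (NB1) marked. Array T3 is highest in Cdh1 (5.99) and Esrp1 (5.55) and lies at 4.55 in Sox2, while T5 is highest in Cldn6 (6.65) and Sox2 (5.37).

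The stretches of 250 bases before the RefSeq starts of Epcam (GRCm38.p6, chr17:87635729-87635978, plus strand) and of Cldn6 (chr17:23679115-23679364, plus strand) are shown. Cldn6 was taken because its pattern over the arrays was the most like that of Epcam. Capitals mark matches, on either strand, to AAGTG (the core bound by Nkx factors), AGGTGT (T-box factors), TGTTTAC (forkhead factors such as Foxa1), AACCGGTT (grainyhead factors), GGGCGG (GC box) or the TATA box (TATAAA), and no matches overlap in the promoters shown.
Epcam: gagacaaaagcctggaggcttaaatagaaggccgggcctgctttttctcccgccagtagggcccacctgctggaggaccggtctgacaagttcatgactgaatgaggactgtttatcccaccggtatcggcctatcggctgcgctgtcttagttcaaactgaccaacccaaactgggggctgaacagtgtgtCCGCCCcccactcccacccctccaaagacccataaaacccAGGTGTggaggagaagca
Cldn6: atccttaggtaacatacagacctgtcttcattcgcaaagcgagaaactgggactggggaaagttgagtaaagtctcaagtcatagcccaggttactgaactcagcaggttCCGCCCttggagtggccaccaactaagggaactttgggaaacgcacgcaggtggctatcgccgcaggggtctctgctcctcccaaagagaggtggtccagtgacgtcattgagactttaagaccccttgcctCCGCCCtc
Epcam held AGGTGT from 18 to 13 bases before the start, and 11.8% of 32851 such promoters hold it. GGGCGG, in 32.7% of promoters, was found once in Epcam and 2 times in Cldn6, each on the other strand. The Nkx core (in 40.7% of promoters), the forkhead motif (3.17%), the grainyhead motif (0.116%) and the TATA box (12.4%) were not in either window.

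Cdh1, the cadherin of epithelial junctions, had signals of 5.64, 5.61 and 5.62 in Nkx2-5+/-;Brg1+/- hearts, against 5.50, 5.57, 5.30 and 5.61 in Nkx2-5+/- hearts. The highest of the Nkx2-5+/- arrays, at 5.610, lay just below the lowest compound one, at 5.612, so the groups did not overlap. Of all genes, 7.71% did not overlap in this comparison, 4.13% with the compound group higher, and the Cdh1 difference of 0.13 (SE 0.15, adjusted p = 0.764) did not pass. It was the 1 case without overlap among the 56 between 2 groups. Of all genes, the groups did not overlap in 0.607% for Brg1+/-, 0.582% for Tbx5+/-, 2.49% for Nkx2-5+/-, 2.35% for Tbx5+/-;Brg1+/- and 3.98% for Nkx2-5+/-;Brg1+/- against wild type, and in 3.65% for Tbx5+/-;Brg1+/- against Tbx5+/-. Against wild type, at 5.22 to 5.69 with a median of 5.33, the Cdh1 differences ran from -0.08 in Brg1+/- to 0.26 in Nkx2-5+/-;Brg1+/- hearts (SE 0.14, adjusted p = 0.688). Cdh1 and Epcam had r = 0.51 within groups (rho = 0.46, permutation p = 0.0222 and adjusted p = 0.0728 over 28 pairs of members), which did not pass, and r = 0.48 without the 2 arrays farthest from the Epcam median.

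Of the 29 measured genes of the epithelium list, 0 were higher and 3 were lower in Nkx2-5+/- than in wild-type hearts, with a median difference of 0.05 beside -0.01 for all genes. Krt19, a keratin of simple epithelia, fell by 0.56 (SE 0.15, adjusted p = 0.0255). Krt7, another such keratin, fell by 0.42 (SE 0.11, adjusted p = 0.0252), and Spint2, an inhibitor of membrane serine proteases, by 0.62 (SE 0.17, adjusted p = 0.0286). In Nkx2-5+/-;Brg1+/- against Nkx2-5+/- hearts 1 of the 29 was higher and 0 were lower, where 0.0351% of all genes were higher. It was Cdh3, a second epithelial cadherin, which rose by 0.63 (SE 0.11, adjusted p = 0.0252). Its signals were 9.25, 9.37 and 9.38 in Nkx2-5+/-;Brg1+/- hearts, against 8.84, 8.43, 8.84 and 8.68 in Nkx2-5+/- hearts, with no overlap. Cdh3 (0.80) and Krt7 (0.93) also passed the Nkx2-5 by Brg1 interaction, both at an adjusted p of 0.0146. In the other comparisons limma called 0 of the 29. Without the pair of arrays, 2 of the 29 were higher and 6 lower in Nkx2-5+/- than in wild-type hearts, where 6.56% and 15.2% of all genes were, and Krt19 fell by 0.78 (adjusted p = 1.6e-04). Cdh3 then rose by 0.68 in Nkx2-5+/-;Brg1+/- against Nkx2-5+/- hearts (adjusted p = 0.00106), where 4 of the 29 were higher and 0 lower, against 7.06% of all genes higher.

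Krt8, the type II keratin, and its type I partner Krt18 were low in 3 of the 4 Nkx2-5+/- arrays and high in the fourth. Krt8 signals were 8.36, 8.18, 9.37 and 7.75 in Nkx2-5+/- hearts, against 8.22 to 8.96 in wild type with a median of 8.64. Krt18 signals were 8.08, 8.02, 8.74 and 8.07 in Nkx2-5+/- hearts, against 8.12 to 8.69 in wild type with a median of 8.46. Replicate 3, which goes against its label, was above every wild-type array in both keratins. The other 3 were below every wild-type array in Krt18, and 2 of them were in Krt8. With all arrays the differences were -0.23 for Krt8 (SE 0.19, adjusted p = 0.546) and -0.19 for Krt18 (SE 0.13, adjusted p = 0.413), and neither passed.

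Without the pair of arrays that go against their labels, Krt8 fell by 0.54 (SE 0.15, adjusted p = 0.00947) and Krt18 by 0.37 (SE 0.12, adjusted p = 0.0263). In this fit 5 of the 8 members were called, with Nkx2-1, Foxa1 and Shh higher, and 21.8% of all genes were called. Krt18 was then higher in Nkx2-5+/-;Brg1+/- than in Nkx2-5+/- hearts by 0.58 (adjusted p = 0.00628) and Krt8 by 0.59 (adjusted p = 0.0249), where 11.9% of all genes were called. With all arrays these differences were 0.41 (SE 0.15, adjusted p = 0.167) and 0.27 (SE 0.23, adjusted p = 0.626). The Nkx2-5 by Brg1 interaction of Krt18 was 0.56 (SE 0.19, adjusted p = 0.0831) with all arrays and 0.73 (adjusted p = 0.00356) without the pair, where 16.3% of all genes were called. That of Krt8 was 0.33 (SE 0.28, adjusted p = 0.585) with all arrays and 0.65 (adjusted p = 0.0355) without the pair. In the test of any difference among the 6 genotypes, which called 3.19% of all genes and 0 of the 8 members, Krt18 had an adjusted p of 0.0546 and Krt8 of 0.463. Without Nkx2-5+/- replicate 3 alone they were 0.00109 and 0.00589, and Shh also passed (adjusted p = 0.0357). In that setting 3288 of all 19935 genes were called. Without the pair the members called were Krt18 (0.00125), Krt8 (0.00708) and Shh (0.0402), where 3385 of all 19935 genes were called. With array weights they were these 3 and Foxa1 (0.0231), where 5785 of all genes were called. At an unadjusted p under 0.05 that test held Shh and Krt18, where 19.2% of all genes did.

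Heart muscle genes were low, and red blood cell genes as given above were high, on the Nkx2-5+/- arrays where Krt18 was low. Replicate 3 had the highest heart muscle mean and the lowest red blood cell mean of that group. The mean signal of 14 cardiomyocyte genes was 11.42, 11.29, 12.31 and 11.24 in Nkx2-5+/- hearts, against 11.80 to 12.24 in wild type. Limma called 9 of the 14 lower and 0 higher with all arrays, with a median difference of -0.47. Of all genes, 5.16% were lower and 2.72% higher in that fit. Of 10 epicardium and mesothelium genes 3 were lower and 0 higher (median -0.38), with Tcf21 down by 0.45 (adjusted p = 0.0189) and Msln by 0.70 (adjusted p = 0.0182). Among 11 keratin partners and junction genes 2 were lower and 0 higher (median -0.29), namely the desmosome genes Pkp2, by 0.71 (adjusted p = 0.0149), and Jup, by 0.41 (adjusted p = 0.0192), both also used by heart muscle. Leaving out the pair, 12 of the 14 cardiomyocyte genes, 4 of the 10 epicardium and mesothelium genes and 9 of the 11 junction genes were lower. There 0 of any were higher, and of all genes 15.2% were lower and 6.56% higher. Within groups, Krt18 had r = 0.62 with the cardiomyocyte mean in a permutation test (adjusted p = 0.233 over 112 relations). Krt8 had r = 0.52 with it (adjusted p = 0.52). With the erythroid mean r was -0.50 for Krt18 (adjusted p = 0.167) and -0.20 for Krt8 (adjusted p = 0.675). None passed, and without the pair the cardiomyocyte values were 0.22 for Krt18 and -0.24 for Krt8. Fits with the erythroid or liver list mean as a covariate were also run. Beyond these, the part of cell content in the keratin values was not tested.

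**Figure D5:**
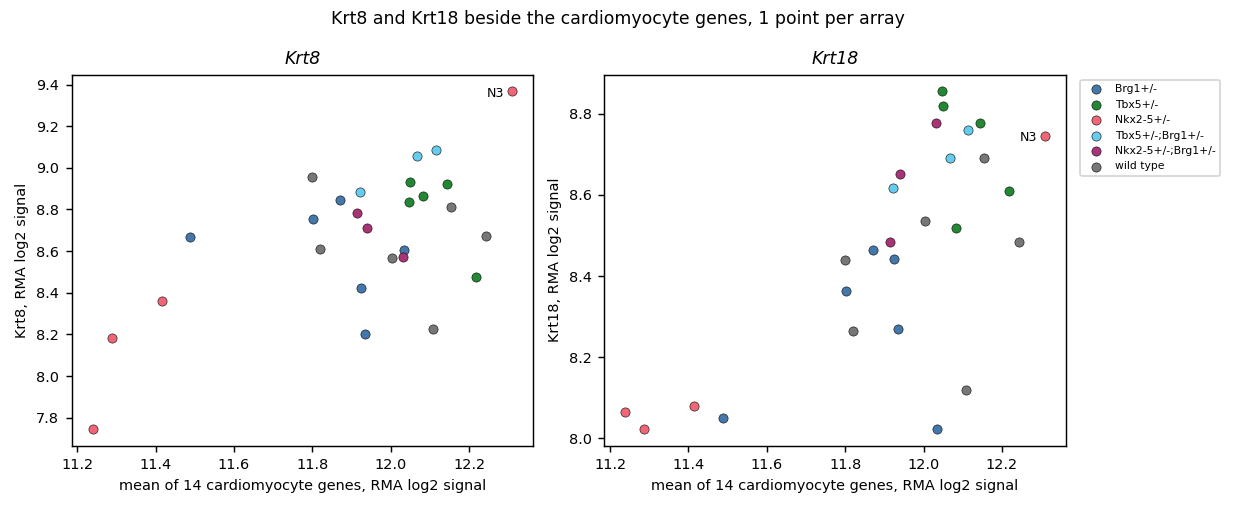
RMA log2 signals of Krt8 and Krt18 against the mean of 14 cardiomyocyte genes, 1 point per array, coloured by genotype. The array labelled Nkx2-5+/- replicate 3 (N3) has the highest cardiomyocyte mean (12.31), and the other 3 Nkx2-5+/- arrays the lowest (11.24 to 11.42) with Krt18 signals of 8.02 to 8.08.

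In the other genotypes Krt18 signals were 8.52, 8.61, 8.86, 8.78 and 8.82 in Tbx5+/- hearts, all above the wild-type median of 8.46. The Krt18 difference of 0.29 (SE 0.12, unadjusted p = 0.0224) had an adjusted p of 1, in a comparison with 0 called genes. In Tbx5+/-;Brg1+/- hearts, at 8.69, 8.76 and 8.62, Krt18 differed from wild type by 0.27 (SE 0.14, adjusted p = 0.979). Krt8 signals there were 9.06, 9.09 and 8.88, a difference of 0.37 (SE 0.21, adjusted p = 0.979). Between neighbouring groups in rank, the Tbx5+/-;Brg1+/- mean of Krt8 stood above the Tbx5+/- mean, and the Nkx2-5+/-;Brg1+/- mean of Krt18 above the wild-type mean, by more than the larger SD, with overlapping arrays in both cases.

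Krt8 and Krt18 lie on chromosome 15, on opposite strands, and the 250 bases before each start in RefSeq are shown as the promoters of partner keratins, with capitals as for Epcam (GRCm38.p6, Krt8 chr15:102004343-102004592, minus strand, and Krt18 chr15:102027966-102028215, plus strand).
Krt8: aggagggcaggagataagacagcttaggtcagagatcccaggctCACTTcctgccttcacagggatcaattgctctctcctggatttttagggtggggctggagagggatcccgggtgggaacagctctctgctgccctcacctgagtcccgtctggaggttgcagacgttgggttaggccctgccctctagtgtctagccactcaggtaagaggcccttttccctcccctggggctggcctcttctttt
Krt18: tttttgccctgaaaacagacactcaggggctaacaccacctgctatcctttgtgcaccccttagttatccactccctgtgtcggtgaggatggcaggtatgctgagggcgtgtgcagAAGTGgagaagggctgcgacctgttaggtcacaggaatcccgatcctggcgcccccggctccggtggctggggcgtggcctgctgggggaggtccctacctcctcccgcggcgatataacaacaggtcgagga
Each held 1 match to AAGTG, from 206 to 202 bases before the start in Krt8 on the other strand and from 133 to 129 in Krt18 on the gene's own strand, a motif in 40.7% of promoters. The other 5 motifs had no match in either window. Of the 8 members, 6 had an entry in the promoter table.

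Over the 27 arrays with group means subtracted, 4 of the 28 pairs of members passed a permutation test of Pearson's r within groups (100000 resamples, adjusted p under 0.05 over the 28). With the 2 arrays farthest from the median of the first gene left out of each pair, 0 of the 28 passed, and without wild-type replicate 3, 3 did. By Spearman's rho 6 passed, the same 4 and Cdh1 with Nkx2-1 (rho = 0.54) and with Foxa1 (rho = 0.525), each at an adjusted p of 0.0497. Nkx2-1 and Foxa1 varied together, with r = 0.62 (permutation p = 0.00323, adjusted 0.0382) and rho = 0.60 (adjusted p = 0.0497), and r = 0.61 without the 2 arrays farthest from the Nkx2-1 median. Foxa1 and Epcam had r = 0.51 (p = 0.00334, adjusted 0.0382), rho = 0.49 (adjusted p = 0.0497) and r = 0.55 without the 2 farthest arrays. Foxa2 and Shh, a factor and a gene that the notochord and the endoderm both use, had r = 0.50 (p = 0.00689, adjusted 0.0482), rho = 0.52 (adjusted p = 0.0497) and r = 0.59 without 2. Nkx2-1 and Krt8 ran opposite, with r = -0.69 (p = 0.00409, adjusted 0.0382), rho = -0.57 (adjusted p = 0.0497) and r = -0.62 without 2. Krt8 and Krt18 had r = 0.63 (p = 0.0234, adjusted 0.0728) and rho = 0.46 (adjusted p = 0.12), but 0.35 without Nkx2-5+/- replicates 3 and 4, so that relation rests on those arrays. Without the pair of arrays that go against their labels, the 5 values of r were 0.56, 0.43, 0.50, -0.44 and 0.30.

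Some members also followed dim genes at large. The mean signal of genes outside the lists with a mean between log2 5 and 6.5, an array-wide level, had r = 0.73 with Nkx2-1 (permutation p = 0.00065, adjusted 0.0052 over 8), 0.48 with Foxa1 (adjusted p = 0.0493) and -0.68 with Krt8 (adjusted p = 0.00592), with rho of 0.68, 0.48 and -0.59. For Epcam r was 0.25, for Foxa2 0.14 and for Shh 0.37, none of which passed. Without the 2 farthest arrays r was 0.74 for Nkx2-1, 0.54 for Foxa1 and -0.49 for Krt8, and without the pair against their labels 0.62, 0.39 and -0.51. The part of this array-wide level in the pairs was not tested. Nkx2-1 (r = 0.76) and Foxa1 (r = 0.70) followed the mean of the foregut endoderm list, both with adjusted p under 0.05 over 112 relations. Nkx2-1 (r = 0.81, adjusted p = 0.00672) and Foxa1 (r = 0.63, adjusted p = 0.0495) also followed the epithelial list mean. By rho that Foxa1 relation did not pass (adjusted p = 0.0617). On values as deposited r was 0.53 and 0.51 for the endoderm list, and 0.35 and 0.41 for the epithelial list. The genes most like Nkx2-1 were D6Ertd474e (0.84), Ky (0.81) and Kif12 (0.81), and those most like Foxa1 were Fermt1 (0.81), Cdv3 (0.79) and Maf (0.77). For Foxa2 they were Nab2 (0.69), Clrn1 (0.68) and F10 (0.66), and for Shh Aldh3b3 (0.75), Selplg (0.74) and Plch2 (0.73). For Cdh1 they were Lhx5 (0.69), Piwil1 (0.69) and Saa3 (0.68). For Krt8 they were Araf (0.86), Arv1 (0.84) and Exosc1 (0.83), and for Krt18 Samd4 (0.82), Prmt1 (0.81) and Mrpl48 (0.80). No member was among the 3 genes most like another member.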

How the data were processed

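Total RNA of E11.5 hearts was measured on 27 Affymetrix arrays. The deposited values are log2 signals of 28815 probe sets, which the authors obtained by RMA in Affymetrix Power Tools according to the submitters' processing notes. The versions and the genome build are not given in the sources used here. They were used as deposited, without detection calls, so precision rests on the number of arrays. Probe sets with 1 symbol in the platform annotation were kept (21780, against 1605 with several and 5430 not listed), and the probe set with the highest mean stood for each of 19935 genes, of which 19853 matched RefSeq (GRCm38.p6).

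All 27 arrays entered 1 fit of limma 3.58.1 (R 4.3.3) that gave each genotype its own mean, with empirical Bayes without a trend, 9 comparisons, two-sided tests and Benjamini-Hochberg adjustment over all genes. Relations between genes used values with group means subtracted and permutation within groups. The fit was tested on simulated data. Promoter matches were counted over 32851 RefSeq promoters. Named genes were the members, up to 4 called genes of each list with the smallest p, the 2 with the smallest p where none was called, and the 3 genes most like each member by Pearson r, passing over clone, predicted and accession-like names and olfactory or vomeronasal receptors. Some that this rule allows were left out. The members and lists were chosen with earlier results of these data known. Alternatives were other normalizations, filters, probe set means and variance priors, array weights, the compared groups alone, the replicate number as a block, the erythroid or liver list mean as a covariate, and each array or the pair against their labels left out. The mean of genes between log2 5 and 6.5 as a covariate was added after seeing the data.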

Additional observations from a re-analysis of the deposited data

Results flagged for a closer look

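In 32 tests of a group of 4 to 6 arrays for 1 array that stands apart (Dixon's test), 4 passed, where chance gives about 1 in 20. The highest Krt18 signal in Nkx2-5+/- hearts, 8.745 in replicate 3, stood apart from the others at 8.024 to 8.079, and this is an array that goes against its label. The lowest Krt8 signal in Tbx5+/- hearts, 8.477 in replicate 2, stood below the others at 8.835 to 8.933. In wild-type hearts, replicate 5 had a Nkx2-1 signal of 6.106 with the others at 5.670 to 5.777, and replicate 3 had the lowest Epcam signal, 4.914, with the others at 5.198 to 5.258. That array is the one with the highest liver gene signal.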

How the results depend on the processing

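Of 1686 recomputed values of the 72 member differences, 1580 kept their direction and their side of the threshold, 6 lost the Shh call, 23 gained a call and 77 changed sign, 48 of these with 1 array left out. The 20 differences that changed sign measured at most 0.18 as reported, and none was called. The 23 gained calls were in Nkx2-5+/- against wild type, Nkx2-5+/-;Brg1+/- against Nkx2-5+/- and the Nkx2-5 by Brg1 interaction. With array weights, the Shh interaction passed at -0.45 (adjusted p = 0.0112), the Krt18 interaction at 0.83 (adjusted p = 6.3e-04), and Krt8 (-0.54) and Krt18 (-0.37) in Nkx2-5+/- against wild type. The Krt18 interaction also passed with the dim-gene covariate (0.58, adjusted p = 0.0447). Apart from settings that leave out arrays, the cause of these changes was not tested.

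The replicate number did not pair the arrays, with a median correlation of deviations of 0.012 between groups for the same number (n = 55) and -0.0022 for different numbers (n = 244). The replicate block kept the Shh difference, at 0.39 (adjusted p = 0.0352). Genes called among all 19935 with the replicate block numbered 1 in Brg1+/- against wild type (2 as reported), 1 in Tbx5+/-;Brg1+/- (0), 3 in Nkx2-5+/-;Brg1+/- (7) and 412 in Nkx2-5+/-;Brg1+/- against Nkx2-5+/- (8).

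For Brg1+/- against wild type, the count was 1 after a further quantile normalization, with the compared groups alone or with the erythroid covariate, 4 with equalised array medians or without the pair of arrays against their labels, and 1 to 3 with 1 array left out. For Nkx2-5+/- it was 1572 as reported, 4 with the compared groups alone, 3744 with array weights, 2 with the erythroid covariate, 4346 without the pair and 66 to 4368 with 1 array left out. For Tbx5+/-;Brg1+/- it was 1 with the compared groups alone or the erythroid covariate, and 6 with array weights. For Nkx2-5+/-;Brg1+/- it was 4 after a further quantile normalization or with the liver covariate, 0 with the compared groups alone, 1156 with array weights, 11 without the pair and 0 to 8 with 1 array left out. For Tbx5+/-;Brg1+/- against Tbx5+/-, 2 genes were called with array weights. For Nkx2-5+/-;Brg1+/- against Nkx2-5+/-, the count was 121 after a further quantile normalization, 3 with equalised medians, 140 without the dimmest genes, 88 with a trended and robust prior, 0 with the compared groups alone, 3680 with array weights, 1 with the erythroid covariate, 262 with the liver covariate, 149 with the dim-gene covariate, 2363 without the pair and 0 to 2308 with 1 array left out. The Tbx5 by Brg1 interaction called 2 with array weights and 1 with the erythroid covariate. The Nkx2-5 by Brg1 interaction called 987 as reported, 25 with the compared groups alone, 4235 with array weights, 0 with the erythroid covariate, 1546 with the dim-gene covariate, 3258 without the pair and 6 to 3224 with 1 array left out. The test over all genotypes called 636, against 1000 without the dimmest genes, 5785 with array weights, 20 with the erythroid covariate, 1076 with the liver covariate, 1029 with the dim-gene covariate, 3385 without the pair and 62 to 3288 with 1 array left out. Leaving out 1 array kept the other 4 counts at 0. Pairs of members that passed numbered 6 by Spearman's rho, 7 on values as deposited, 0 without the 2 farthest arrays and 3 without wild-type replicate 3, against 4.

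The changed signs outside single arrays were these. In Brg1+/- hearts Foxa1 was 0.0255 with equalised medians and 0.0107 with the liver covariate, and with the erythroid covariate Foxa2 was -0.0454 and Krt8 0.0263. In Tbx5+/- hearts Foxa1 was -0.0044 with array weights. In Tbx5+/-;Brg1+/- hearts Nkx2-1 was 0.0037 with equalised medians, 0.0580 with array weights, 0.0813 with the replicate block and 0.0014 with the liver covariate, and Cdh1 was 0.0180 with array weights, 0.0055 with the replicate block and 0.0238 without the pair. In Nkx2-5+/-;Brg1+/- hearts Nkx2-1 was -0.0163 and Foxa2 -0.0099 after a further quantile normalization, and -0.0536 and -0.0061 with the dim-gene covariate. With array weights Foxa2 was -0.0716 and Krt8 -0.0629 there, and Krt8 was -0.0654 with the replicate block. Against Tbx5+/- hearts, Krt18 in Tbx5+/-;Brg1+/- hearts was 0.0043 after a further quantile normalization, 0.0024 with the erythroid covariate, 0.0376 with the dim-gene covariate and 0.0106 without the pair. Against Nkx2-5+/- hearts, Epcam in Nkx2-5+/-;Brg1+/- hearts was 0.1565 with array weights and 0.0012 with the erythroid covariate. In the Nkx2-5 by Brg1 interaction Epcam was -0.0733 with equalised medians, -0.0090 with the dim-gene covariate and -0.2547 without the pair, and Foxa2 was 0.0348 with the erythroid covariate.

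With 1 array left out, differences from wild type ranged in Brg1+/- hearts from -0.0790 to 0.0482 for Foxa1, -0.0127 to 0.0717 for Foxa2, -0.1406 to 0.0188 for Krt8 and -0.0233 to 0.0869 for Nkx2-1. In Tbx5+/- hearts they ranged from -0.0460 to 0.0420 for Foxa1 and -0.0646 to 0.0999 for Foxa2. In Tbx5+/-;Brg1+/- hearts they ranged from -0.1112 to 0.0335 for Cdh1, -0.0985 to 0.3170 for Epcam and -0.0938 to 0.1472 for Nkx2-1. In Nkx2-5+/-;Brg1+/- hearts they ranged from -0.2000 to 0.3380 for Epcam, -0.0833 to 0.0862 for Foxa2, -0.0357 to 0.1105 for Krt8 and -0.0408 to 0.0972 for Nkx2-1. Against Tbx5+/- hearts, those with Brg1 loss added ranged from -0.0055 to 0.3145 for Foxa2 and -0.0754 to 0.0106 for Krt18, and against Nkx2-5+/- hearts from -0.4698 to 0.1180 for Epcam. The Tbx5 by Brg1 interaction ranged from -0.3882 to 0.0273 for Epcam and -0.0312 to 0.2888 for Foxa2, and the Nkx2-5 by Brg1 interaction from -0.3381 to 0.2497 for Epcam.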
